A study of Mus musculus with 4 samples.

Results

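Among the cells of mouse lung tumour suspensions, 84 barcodes passed a gate for γδ T cells with the markers of the interleukin-17-producing kind. Members were chosen by measured values, namely UMIs per barcode, in the 2 libraries made before immune cells were depleted. A barcode with 200 genes or more, and mitochondrial UMIs up to 20%, was a member when it held at least 2 UMIs (unique molecular identifiers, each standing for 1 captured transcript) of Cd3d, Cd3e and Cd3g together and at least 2 of Trdc and Cd163l1 together. It also had to lack any UMI of Cd4, Cd8a, Cd8b1, Foxp3, Cd79a, Epcam and C1qa. Trdc encodes the constant region of the T cell receptor δ chain, and Cd163l1 is a scavenger receptor gene of IL-17-producing γδ T cells. The members were 48 barcodes of the vehicle library and 36 of the library labelled tamoxifen, of 13531 kept barcodes in these libraries and 28085 in the whole series.

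The 4 libraries came from lung tumours of mice carrying p53frt, Rosa-FSF-CreERT2 and Hnf4aflox alleles, and all groups shared this genotype. Tumours were started with an adenovirus carrying FlpO under the mSPC promoter, a promoter of alveolar type II cells. The mice received tamoxifen or vehicle 10 weeks after infection, and macroscopic tumours were taken 2 weeks after treatment, with 1 library per treatment before and 1 after removal of CD45- and CD31-positive cells on beads. The vehicle is named ethanol in one label and corn oil in another, the ages are not given, and the number of animals or tumours behind a suspension is not stated. FlpO was expressed from that promoter, so recombination was aimed at the epithelium. Hnf4a, the gene the treatment was to delete, was at 32.6 CPM (the gene's UMIs scaled to a fixed total over the summed cells) in barcodes with at least 2 Epcam UMIs and no CD3 UMI of the vehicle library before depletion and at 55.3 CPM in the library labelled tamoxifen. That order goes against the label. These are 3′ counts, which do not show which exons were transcribed, so every direction between the treatments rests on the library's label. The members held 1 Hnf4a UMI in all, and no Cre or FlpO UMI.

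γδ T cells carry a T cell receptor built from a γ and a δ chain and respond without priming by classical peptide presentation. The IL-17-producing kind leaves the thymus already committed, depends on transcription factors such as Maf and Sox13, and answers interleukin-23 and interleukin-1 with IL-17A. Such cells reside in the lung and other barrier tissues, and in mouse lung tumours they are known as a source of IL-17A.

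Before the values, the region just upstream of the transcription start is shown for the genes of the cytokine and of its inducing receptor, because Il17a and Il23r stood high together in the members. Il17a lies at chr1:20730905-20734496 on the plus strand and Il23r at chr6:67422932-67491855 on the minus strand (GRCm38, GENCODE M21). The 250 bases before each start are from RefSeq, build GRCm38.p6, at chr1:20730655-20730904 (plus strand) and chr6:67491856-67492105 (minus strand), 5′ to 3′ on the gene's strand. Capitals mark AGGTCA, a core half-site of nuclear receptors, or its reverse complement TGACCT.
Il17a promoter: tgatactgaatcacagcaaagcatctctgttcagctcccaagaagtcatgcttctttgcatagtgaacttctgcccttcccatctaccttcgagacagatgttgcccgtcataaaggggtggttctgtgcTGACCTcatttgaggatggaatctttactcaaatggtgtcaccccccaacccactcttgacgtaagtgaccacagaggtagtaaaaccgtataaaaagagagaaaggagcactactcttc
Il23r promoter: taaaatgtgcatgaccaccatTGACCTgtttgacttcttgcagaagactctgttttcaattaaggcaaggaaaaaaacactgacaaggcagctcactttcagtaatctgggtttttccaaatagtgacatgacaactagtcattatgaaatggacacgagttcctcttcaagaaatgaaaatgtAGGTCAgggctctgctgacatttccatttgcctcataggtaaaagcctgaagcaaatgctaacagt
The Il17a window held 1 match, on the minus strand and 120 bases before the start. The Il23r window held 2, at 229 bases on the minus strand and at 66 bases on the plus strand. Searched on both strands, this motif was in 3740 of 27025 promoters of the same length (13.8%) and in 9 of the 22 promoters of the type 17 list described below (40.9%). A match is a description of these letters, not a binding site.

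Members made up 0.657% of the kept barcodes in the vehicle library (95% Clopper-Pearson interval 0.485 to 0.870) and 0.578% in the library labelled tamoxifen (0.405 to 0.799). Of the barcodes with at least 2 CD3 UMIs, 1224 and 745, they made up 3.92% and 4.83%. On the latter denominator the intervals were 2.91 to 5.17 and 3.41 to 6.63. The intervals overlap on both, and with 1 library per group they cover counting error only. After depletion no barcode reached 2 CD3 UMIs, which allows a share of up to 0.0426% of 7043 barcodes and 0.0399% of 7511. CD45, one target of the beads, is carried by T cells. The 4 libraries shared from 10 to 18 barcodes pairwise. The median depth was 6166.5 UMIs per member in the vehicle library (2145 to 65652) and 7688 in the library labelled tamoxifen (2131 to 19526), against 6160.5 and 6216.5 in CD8 T cells, 5727 and 6355 in conventional CD4 T cells and 4331.5 and 3969 in NK cells.

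The Trdc and Cd163l1 UMIs chose the members and are given as a description. Trdc was seen in 83 of the 84 members, with a median of 9.5 UMIs in the vehicle library and 17.5 in the library labelled tamoxifen. Cd163l1 was seen in 71 members, with medians of 11 and 13. At least 2 CD3 UMIs and at least 2 of Trdc and Cd163l1 together were held by 68 and 51 barcodes. The limit on Cd4, Cd8a, Cd8b1 and Foxp3 removed 10 and 3 of them, and that on Cd79a, Epcam and C1qa a further 10 and 12. The shares above are thus those of barcodes passing the whole gate. Few barcodes lay at the threshold: with all other conditions met, 0 and 3 barcodes held exactly 2 UMIs of the pair, 4 and 0 held 3, and 4 and 1 fell just outside with 1 UMI. Of the 5 barcodes just outside, none had an Il17a or Il23r UMI and 4 had a Trac UMI. Of the 3 just inside with 2 UMIs, 1 had Il17a, 1 had Il23r and 2 had Trac.

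Of the 84 members, 6 also held at least 15 UMIs of a marker list of another cell type, and they are called mixed below. In the vehicle library the deepest member, with 65652 UMIs and 16.3% of all member UMIs there, had 218 UMIs of the epithelial list, 43 of the alveolar macrophage list and none of Il17a, Il23r or Cxcr6. Another held 317 UMIs of the neutrophil list and 17 of the NK list, the latter all of Tyrobp and none of Ncr1. The remaining mixed members of that library held 51 UMIs of the NK list, 39 of the epithelial list and 26 of the monocyte or macrophage list, in 1 member each. Of those 26 UMIs, 25 were of Ly6c2, a gene seen in 5 of the 8 vehicle members without Cd163l1. Mixed thus refers to the UMI count only, and the origin of these UMIs was not tested. In the library labelled tamoxifen 1 member held 87 UMIs of the NK list with 2 Trdc and no Cd163l1 UMIs. In the other members, 43 and 35, every such list stayed under 15 UMIs. Scrublet scores of all 84 were at or under 0.187. Counts are given with all members, and without the mixed ones beside those that this moved most. The limit of 15 UMIs was applied to members only. The other cell sets compared below kept all their barcodes, also in the comparisons without the mixed members. UMIs of the surfactant gene Sftpc, which T cells should lack, were in 41 and 31 members. After each cell was thinned to 2000 UMIs, the share with Sftpc was 43.8% and 55.6% in members against 50.8% and 58.6% in B cells. The mixed vehicle member with 39 epithelial list UMIs held 24 of the 118 Sftpc UMIs there. The source of the Sftpc UMIs was not tested.

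Genes were compared between the members and 3 other gated sets of the same libraries, with UMIs summed per set and library: CD8 T cells (196 and 152 barcodes), conventional CD4 T cells (363 and 207) and NK cells (120 and 63). The edgeR quasi-likelihood test on these 8 sums took the library as a covariate and adjusted p over 8826 genes, and the 14 genes of the gates were left out of every count. Against CD8 T cells 463 genes were higher in the members (5.25% of those tested) and 377 lower (4.27%). Against conventional CD4 T cells 472 were higher (5.35%) and 441 lower (5.00%), and against NK cells 851 (9.64%) and 759 (8.60%). The covariate takes out the difference that the sets share between the 2 libraries of different treatment. The spread in this test is what remains, pooled over the members and the 3 other sets, and cells were not counted as replicates. The 3 comparisons share the members' sums, so their values are given side by side and their overlap is not a result.

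The T cell receptor genes other than Trdc separated the members from the other sets. Tcrg-C1, a γ chain constant gene, was at 507 and 744 CPM in the members of the vehicle library and of the library labelled tamoxifen, at 74.7 and 1.96 CPM in CD8 T cells, 7.57 and 6.68 in conventional CD4 T cells and 1.83 and 0 in NK cells. It was higher by a log2 difference of 4.03 ± 0.60 (SE) over CD8 T cells (adjusted p = 0.00098), 6.48 ± 0.70 over CD4 T cells (9.15e-05) and 9.07 ± 1.22 over NK cells (0.00025). Neither library's members overlapped with another set in this gene. Of the 6 tested γδ receptor genes, 4 were higher than in CD8 T cells and 6 than in CD4 T cells and NK cells, with none lower. Tcrg-C2 was at 241 and 168 CPM against 110 and 271 in CD8 T cells, and did not pass there (adjusted p = 0.80).

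Tcrg-V6 and Trdv4 encode the variable segments of a γδ receptor known from IL-17 producers of the lung and other tissues. Tcrg-V6 was seen in 15 of 48 and 9 of 36 members and Trdv4 in 22 and 18, and 16 members had both. Trdv4 was at 129 and 165 CPM against 0 UMIs in CD8 and CD4 T cells (at least 119-fold and 192-fold higher, with a floor of 3 UMIs over both libraries) and 7.32 and 7.18 CPM in NK cells (a log2 difference of 4.32 ± 0.47, adjusted p = 0.00015). Tcrg-V4, which marks another IL-17-producing subset, was in 3 members and Tcrg-V1 in 8. The 3′ library reads little of a variable segment, so the members with no V gene UMI cannot be assigned.

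UMIs of αβ receptor chains were also seen. Trac, the α chain constant gene, was at 67.1 and 72.0 CPM in the members and was seen in 14 and 13 of them, against 445 and 589 CPM in CD8 T cells and 478 and 525 in CD4 T cells. It was lower than in both (log2 differences of −2.90 ± 0.20 and −2.88 ± 0.20, adjusted p = 3.6e-06 and 4e-06) and higher than in NK cells (1.71 ± 0.32, adjusted p = 0.0030), where it was at 23.8 and 17.9 CPM. Trbc2, a β chain constant gene, was also lower than in CD8 and CD4 T cells (−0.99 ± 0.16 and −1.04 ± 0.16, adjusted p = 0.0019 and 0.0013). Trbc1, the other β constant gene, was instead at 909 and 1402 CPM in the members against 696 to 986 CPM in CD8 and CD4 T cells, and was higher than in CD8 T cells (0.65 ± 0.16, adjusted p = 0.020). Why Trbc1 and Trbc2 went opposite ways against CD8 T cells was not tested.

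**Figure D1:**
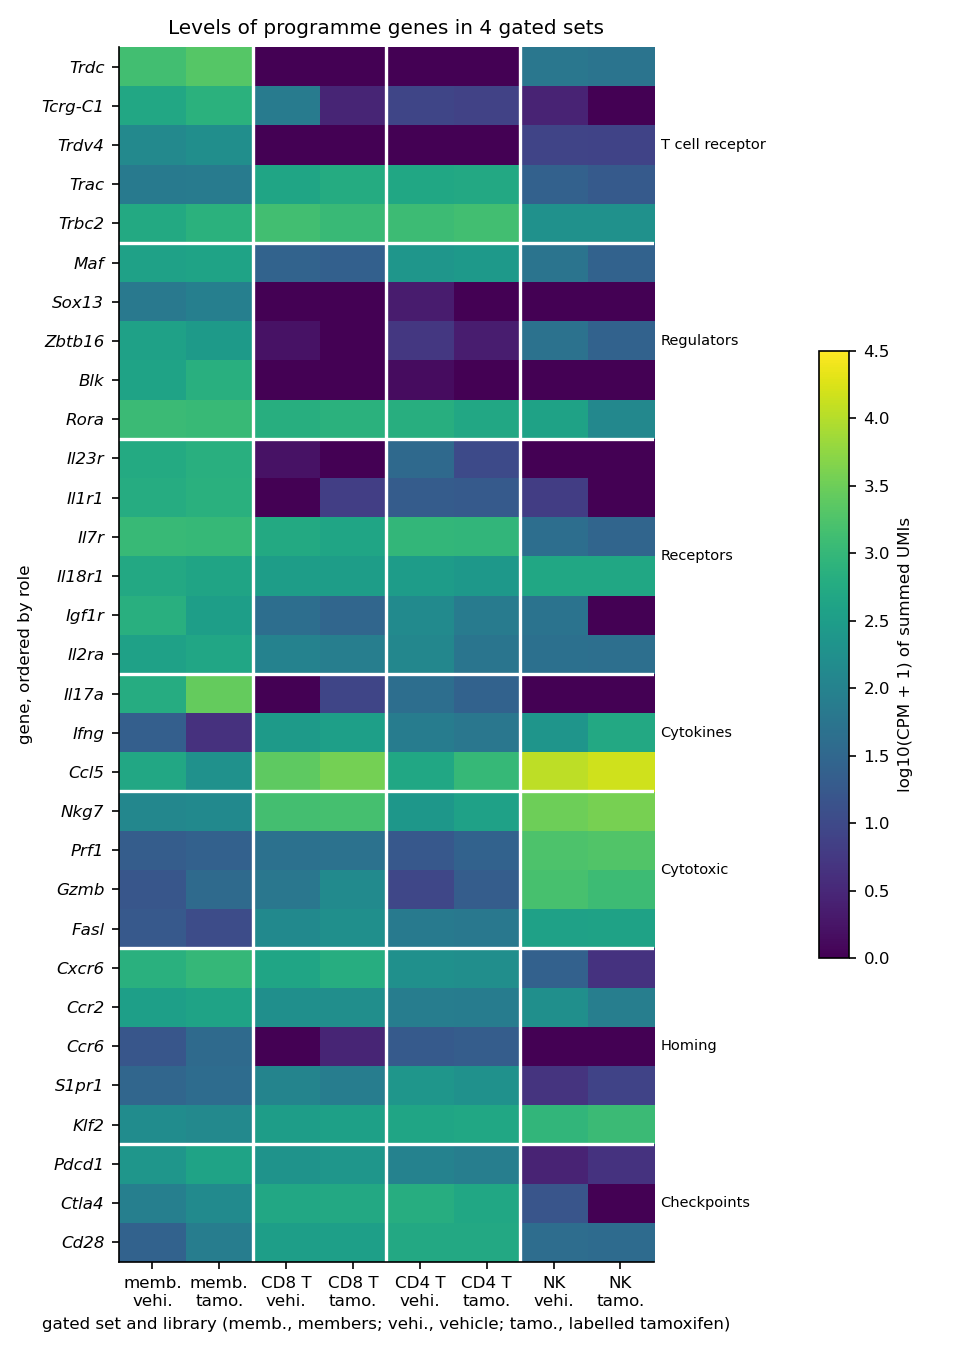
Summed levels of programme genes as log10(CPM + 1) in members, CD8 T, conventional CD4 T and NK cells of both libraries before depletion, 1 column per set and library, with genes ordered by role. Sox13, Blk, Il23r, Il1r1 and Il17a are bright in the members' columns and at or near 0 in most others, while Nkg7, Ifng and Ccl5 are brighter in CD8 T and NK cells.

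The type 17 programme, a list of regulators, receptors and effectors, stood higher in the members against every set. Of its 26 tested genes, 20 were higher than in CD8 T cells, 21 than in CD4 T cells and 24 than in NK cells, and none was lower. The list's median log2 difference was 3.91, 3.28 and 5.09, against −0.02, −0.01 and 0.03 over all tested genes. With genes that had no UMI in a set put at the bound that 3 UMIs allow, the median was 3.91, 3.28 and 4.30. Without the mixed members, and with the other sets left unchanged, Lgals3, a galectin gene, became lower against all sets. In that setting 22, 23 and 24 genes were higher.

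Among the regulators, Sox13, a factor of the fetal γδ programme, was at 64.6 and 85.7 CPM against at most 1.20 CPM elsewhere. Zbtb16, which encodes the innate lymphocyte factor PLZF, was at 378 and 281 CPM, with 0.685 and 0 in CD8 T cells, 4.38 and 1.34 in CD4 T cells and 49.4 and 25.1 in NK cells. For both genes no other set of either library reached the members. Maf was at 373 and 405 CPM and exceeded CD8 T cells (3.96 ± 0.25, adjusted p = 1.8e-06) and NK cells (3.24 ± 0.27, adjusted p = 6.5e-06). Against CD4 T cells, at 228 and 255 CPM, its difference of 0.65 ± 0.19 did not pass (adjusted p = 0.058), and did without the mixed members (0.0070).

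Blk, a Src-family kinase of B cells and γδ T cells (chr14:63372836-63417037, minus strand), was among the most selective genes. It was seen in 35 and 30 members, at 400 and 679 CPM, and in the other sets as 1 UMI in all, in CD4 T cells of the vehicle library. It was at least 427-fold above CD8 T cells and 142-fold above NK cells. Its log2 difference from CD4 T cells was 10.36 ± 0.39 (adjusted p = 4e-07).

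Of the receptors, Il23r, the specific chain of the interleukin-23 receptor, was seen in 36 of 48 and 28 of 36 members. It was at 559 and 679 CPM in members, 0.685 and 0 in CD8 T cells, 33.9 and 9.35 in CD4 T cells and 0 in NK cells, so the members of both libraries were the highest. It exceeded CD4 T cells by 4.74 ± 0.36 (adjusted p = 1.3e-05) and NK cells by at least 168-fold. Il1r1, the interleukin-1 receptor (chr1:40225080-40317257, plus strand), was at 618 and 713 CPM against at most 19.5 CPM in any other set, with log2 differences of 7.98 ± 0.45 over CD8 T cells, 5.07 ± 0.32 over CD4 T cells and 7.5 ± 0.53 over NK cells. Per member, Il23r ran from 0 to 16 UMIs with a median of 3 in the vehicle library and from 0 to 35 with a median of 4 in the other. Il1r1 ran from 0 to 23 and from 0 to 22, with a median of 4 in both, so the libraries overlapped in both genes. Il7r, needed for survival of these cells, was at 1090 and 1015 CPM. It was higher than in CD8 T cells (1.08 ± 0.13, adjusted p = 0.00025) and NK cells (4.90 ± 0.19, adjusted p = 1.9e-08), while its difference of 0.15 ± 0.13 from CD4 T cells did not pass (0.56). The growth factor receptor Igf1r was at 685 and 333 CPM and the leukotriene receptor Ltb4r1 at 161 and 274 CPM. Both were higher against all 3 sets, with log2 differences from 2.17 to 4.17 for Igf1r. Ltb4r1 differed by 5.05 ± 0.30 from CD8 T cells and 3.48 ± 0.24 from CD4 T cells, and was at least 57.5-fold above NK cells, which had no UMI. Il2ra, the α chain of the interleukin-2 receptor, was at 380 and 463 CPM and also higher against all 3 (2.22 ± 0.28, 2.23 ± 0.27 and 3.34 ± 0.36). Over the 21 cytokine receptors tested, 5, 5 and 5 were higher and 4, 6 and 7 lower against CD8 T, CD4 T and NK cells. Il10ra, a receptor for the inhibitory interleukin-10, was lower against all 3 sets, and the shared chain gene Il6st and Tgfbr2 were lower against both T cell sets.

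Il17a, the cytokine gene that names these cells, was at 606 CPM in the members of the vehicle library and 2781 CPM in those of the library labelled tamoxifen, against 0 and 7.85 in CD8 T cells, 41.5 and 24.7 in CD4 T cells and 0 in NK cells. Its log2 difference was 8.71 ± 0.75 over CD8 T cells (adjusted p = 3.7e-05) and 5.15 ± 0.54 over CD4 T cells (0.00013), and it was at least 418-fold above NK cells. The members held 244 of the 439 Il17a UMIs of all kept barcodes in the vehicle library (55.6%) and 811 of 963 in the other (84.2%). Conventional CD4 T cells held 104 and 37 of them. Of the 39 members with an Il17a UMI, 36 also had Il23r, 38 Il1r1, 39 Cxcr6 and 31 Pdcd1. These genes were common in the members at large. Of the members without Il17a, 28 had Il23r and 17 did not, and 27 had Pdcd1 and 18 did not. Over all 48 vehicle members, 40 had Il1r1 and 42 Cxcr6. Depth was not equalised for these counts. Il17f, the neighbouring IL-17 gene, was in 5 and 2 members with 1 UMI each. Il22 had 22 UMIs, all in 1 member of the library labelled tamoxifen. Areg, which encodes the repair factor amphiregulin, was at 47.2 and 165 CPM and higher than in CD8 T and NK cells (3.91 ± 0.46 and 3.67 ± 0.58, adjusted p = 0.00020 and 0.00079), with 1.11 ± 0.34 and an adjusted p of 0.064 against CD4 T cells. Over the 19 secreted factors tested, 4, 4 and 7 were higher and 3, 6 and 2 lower, and without the mixed members 5, 4 and 7 were higher and 3, 6 and 4 lower. Of those higher, Vegfa lost its difference without the mixed members.

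The type 1 and cytotoxic list went the other way. Of its 21 genes none was higher and 14 were lower than in CD8 T cells, and none higher and 19 lower than in NK cells, with medians of −2.41 and −4.64. Against CD4 T cells 4 were higher and 7 lower, with a median of −0.52. Ifng, the cytokine of the type 1 response, was seen in 3 members, at 22.4 and 3.43 CPM, against 286 and 342 CPM in CD8 T cells, 75.3 and 59.4 in CD4 T cells and 220 and 520 in NK cells. It was lower by −4.44 ± 0.52, −2.28 ± 0.61 and −4.51 ± 0.54 (adjusted p = 0.00020, 0.034 and 0.00010). Nkg7, a granule gene, was at 119 and 137 CPM and lower against all 3 sets, and so were the chemokine gene Ccl4 (47.2 and 27.4 CPM) and Fasl (17.4 and 10.3 CPM). Prf1, which encodes perforin, was seen in 8 members of both libraries together and Gzmb, which encodes granzyme B, in 6. Both were lower than in CD8 T and NK cells, while their differences of 0.07 ± 0.34 and 0.80 ± 0.67 from CD4 T cells did not pass. Klrk1, which encodes the activating receptor NKG2D, was an exception within the list. It was at 114 and 226 CPM, above CD4 T cells (3.94 ± 0.32, adjusted p = 1.2e-05) and below NK cells (−2.22 ± 0.25, adjusted p = 5.5e-05).

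Over the 18 genes of the residency and homing list, 4, 6 and 11 were higher than in CD8 T, CD4 T and NK cells and 5, 6 and 3 lower. Cxcr6, the receptor for CXCL16 (chr9:123806475-123811760, plus strand), was at 713 and 1001 CPM in members, 437 and 637 in CD8 T cells, 184 and 164 in CD4 T cells and 23.8 and 3.59 in NK cells. It exceeded CD4 T cells (2.23 ± 0.24, adjusted p = 8.8e-05) and NK cells (5.68 ± 0.38, adjusted p = 1.1e-06). Against CD8 T cells the difference of 0.65 ± 0.23 passed only without the mixed members (adjusted p = 0.11 with them and 0.0097 without). Ccr2, an inflammatory chemokine receptor, was at 340 and 408 CPM and higher against all 3 sets (1.12 ± 0.24, 2.22 ± 0.24 and 1.51 ± 0.27). Ccr6, often used to mark such cells, was in 3 and 2 members only, at 14.9 and 34.3 CPM, and did not differ beyond the error from CD4 T cells (0.25 ± 0.57). Klf2, which drives recirculation, was at 156 and 130 CPM and lower against all 3 sets (−1.24 ± 0.17, −1.69 ± 0.17 and −2.79 ± 0.17). Ccr7 and S1pr1 were lower than in CD8 and CD4 T cells.

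In the activation and checkpoint list, of 20 genes 2, 2 and 6 were higher and 9, 9 and 4 lower than in CD8 T, CD4 T and NK cells. Without the mixed members 4, 2 and 7 were higher and 10, 10 and 5 lower. Pdcd1, which encodes PD-1, was at 228 and 401 CPM in members, 203 and 234 in CD8 T cells, 97.3 and 82.8 in CD4 T cells and 1.83 and 3.59 in NK cells. It was higher than in CD4 T and NK cells (1.70 ± 0.23 and 6.93 ± 0.50), and its 0.47 ± 0.22 over CD8 T cells passed only without the mixed members (adjusted p = 0.24 and 0.041). Ctla4, the co-receptors Cd5 and Cd6 and the costimulatory receptor Cd28 were lower than in both T cell sets. For Cd28, 24.8 and 78.9 CPM stood against 332 and 346 in CD8 T cells and 526 and 528 in CD4 T cells. Lag3 had no UMI in any member.

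**Figure D2:**
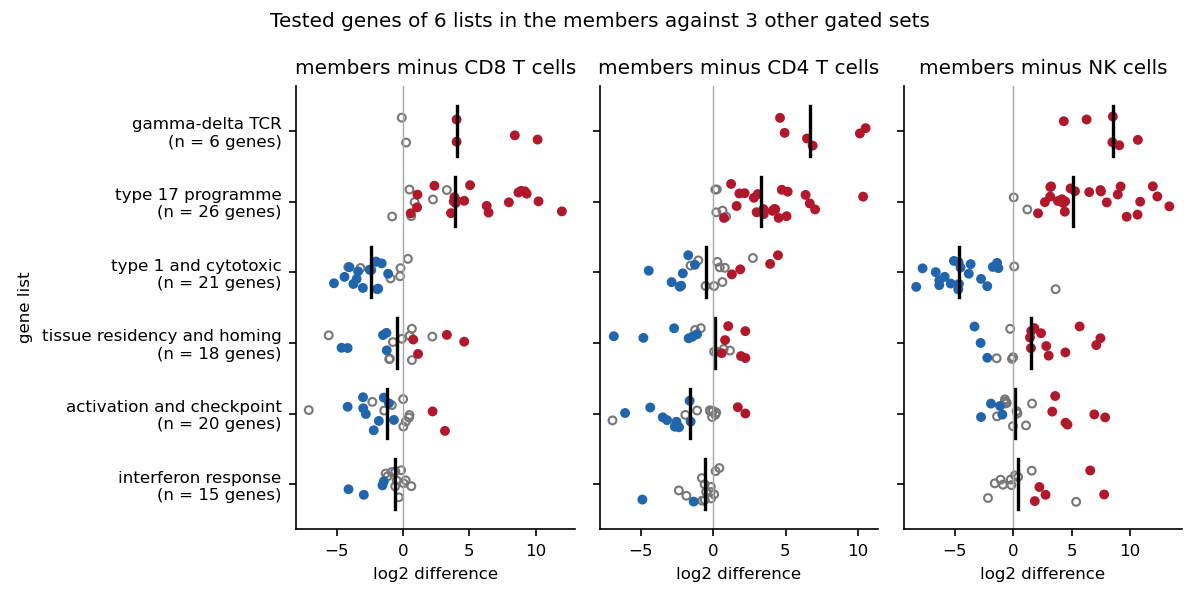
Log2 difference between members and CD8 T, conventional CD4 T or NK cells for each tested gene of 6 lists, 1 point per gene, filled red (higher) or blue (lower) where the adjusted p was under 0.05 and open otherwise, with black bars at the list medians. The type 17 list lies to the right in all 3 panels (medians of fitted values 3.91, 3.28 and 5.09) and the type 1 list to the left of 0 in the CD8 T and NK panels (−2.41 and −4.64).

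The named genes outside the lists were drawn from those past the threshold in the same direction in all 3 comparisons, which share the members' sums: 220 higher (2.49%) and 107 lower (1.21%). The 10 largest least differences on the higher side were those of Zbtb7c, Blk, Zfp462, Rbpms2, Cdh10, Fam83a, Kcnk1, Sox13, Fstl4 and Trpm6. Zbtb7c, a zinc finger gene, had 131 UMIs in 20 and 19 members and none in the other sets, which puts the members at least 156-fold above CD8 T cells, 252-fold above CD4 T cells and 51.9-fold above NK cells. Cdh10, a cadherin gene, was at 99.3 and 219 CPM in 21 and 16 members and had 6 UMIs in all other sets together. Kcnk1, a potassium channel gene, was at 119 and 120 CPM in 24 and 20 members, with log2 differences of 6.45 ± 0.66, 7.04 ± 0.64 and 6.5 ± 0.85. On the lower side the genes were Ifng, Fasl, Gimap7, Lck, Prkch, Sh2d1a, Rundc3b, Cd2, Mir155hg and Card6. Lck, the kinase that starts αβ T cell receptor signalling, was at 47.2 and 54.9 CPM in members and between 230 and 371 CPM in every other set, a difference of −2.86 ± 0.20, −2.54 ± 0.20 and −2.17 ± 0.22. Cd2, an adhesion receptor of T and NK cells, was at 39.7 and 61.7 CPM against 190 to 362 CPM. In transcription factors outside the type 17 list, Ikzf3 (Aiolos) was higher against all 3 sets (0.87 ± 0.18, 1.57 ± 0.18 and 1.33 ± 0.19) and the chromatin organiser Satb1 lower (−1.19 ± 0.15, −2.01 ± 0.15 and −1.78 ± 0.15). Over the 30 transcription factors tested, 9, 8 and 14 were higher and 7, 8 and 10 lower. Of 15 cell cycle genes 0, 0 and 2 were higher (0, 0 and 5 without the mixed members) and 2, 0 and 0 lower, and of 15 interferon response genes 0, 0 and 5 were higher and 4, 2 and 0 lower.

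Summed levels of the marker lists of other cells were compared between the members and the other sets. The NK list was at 209 and 326 CPM in members against 295 and 127 in CD8 T cells, 145 and 126 in CD4 T cells and 19010 and 20781 in NK cells, and all 8 tested genes were lower than in NK cells. Of the members' NK list UMIs 60.7% and 91.6% lay in 1 member each. The neutrophil list was at 827 and 68.6 CPM in members, against 56.9 and 142 in CD8 T cells, 711 and 95.5 in CD4 T cells and 479 and 161 in NK cells, and 1 vehicle member held 95.2% of its UMIs there. The epithelial list was at 889 and 394 CPM in members and between 380 and 751 CPM in the other sets, so the vehicle members were the highest, with 60.9% of the UMIs in 1 member. The part of these lists in the results was not tested beyond leaving out the mixed members. Of the 7 genes listed for group 2 innate lymphoid cells, Il1rl1, Il5, Il13, Il17rb and Klrg1 were at 0 in the members of both libraries. Gata3 had 9 and 14 UMIs in them and Calca, a neuropeptide gene, 9 and 10. Calca was higher than in CD8 T and NK cells (adjusted p = 0.0097 and 0.042), and Gata3 lower than in CD4 T cells (0.0060). Among the calls of higher genes that were lost without the mixed members are those of Vegfa, Krt18, S100a8 and Klra4 against at least 1 set. Id3 was called higher against all 3 sets on UMIs in 3 members. The deepest vehicle member held all 104 vehicle UMIs, and the library labelled tamoxifen had 3. Without the mixed members Id3 was left with too few UMIs to be tested against these sets.

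The gate let cells in by Trdc or by Cd163l1, and members without Cd163l1 differed from those with it. Of the members, 40 and 31 held a Cd163l1 UMI and 8 and 5 held none. Among the 13 without it, Il17a was seen in 2, Il23r in 3, Il1r1 in 2, Trdv4 and Tcrg-V6 in none, and Ccl5 in 7. Among the 71 with it, Il17a was seen in 37, Il23r in 61, Il1r1 in 67, Trdv4 in 40, Tcrg-V6 in 24 and Ccl5 in 3. Il17a, Il23r and Il1r1 were thus seen mainly in the Cd163l1-positive members, and the 13 others are called by the gate only. The split was made on a gene of the rule, itself known from such cells, and the 13 were let in by Trdc alone. Its differences therefore describe the gate and are not separate support for the label. In a fit with the members divided, 70 genes were higher in the Cd163l1-positive members (0.917% of 7633 tested) and 70 lower (0.917%). Without the mixed members, which leaves 11 Cd163l1-negative members, the counts were 116 (1.58% of 7341) and 85 (1.16%).

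**Figure D3:**
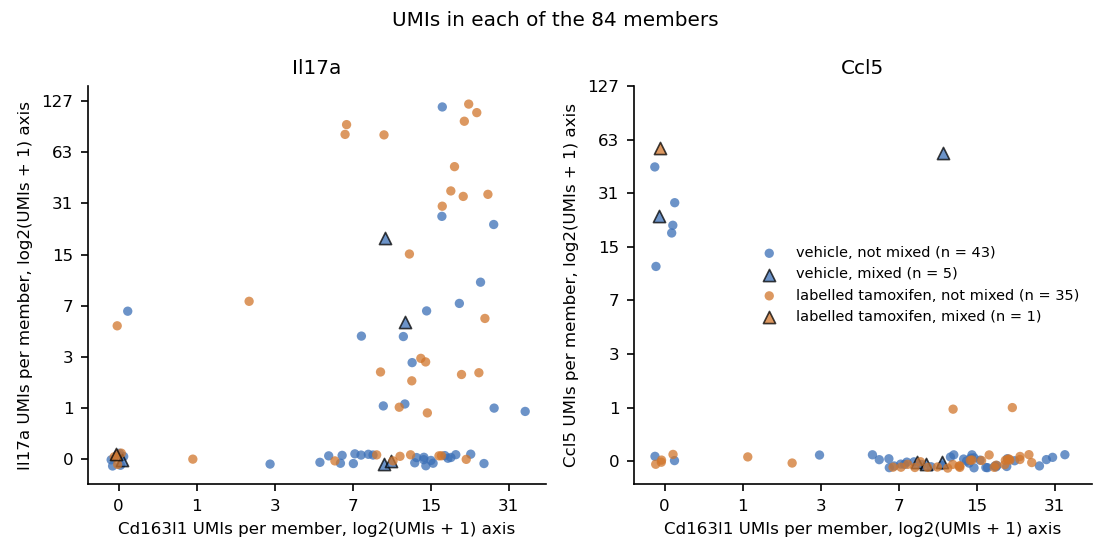
UMIs of Il17a (left) and Ccl5 (right) against UMIs of Cd163l1 in each of the 84 members, 1 point per barcode with small random offsets, on log2(UMIs + 1) axes, coloured by library, with triangles for the 6 mixed members. Il17a reaches 125 and 128 UMIs among Cd163l1-positive members and at most 6 in the others, and 7 of the 10 members with Ccl5 have no Cd163l1 UMI.

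On the positive side of this split stood the type 17 genes. Il17a was at 692 and 3241 CPM in Cd163l1-positive members and at 102 and 116 CPM in the others, a log2 difference of 4.06 ± 0.74 (adjusted p = 0.0099). Il1r1 was at 716 and 824 CPM against 50.9 and 69.9 (3.80 ± 0.54, adjusted p = 0.0012), Il23r higher by 2.59 ± 0.52 (0.017), Igf1r by 3.47 ± 0.59 (0.0042), the protease inhibitor Serpinb1a by 3.43 ± 0.56 (0.0035) and Cxcr6 by 1.90 ± 0.41 (0.026). The positive members of both libraries were above the negative members of both in all of these. Pdcd1 had 207 UMIs in 56 positive members and 2 UMIs in 2 negative ones (4.27 ± 0.64, adjusted p = 0.0021). Prickle2, a planar polarity gene, had 297 UMIs in 59 positive members and none in the negative ones, at least 17-fold, and Zbtb7c, Frmd5, Auts2 and Surf4 likewise had none there. Ablim3, with a log2 difference of 4.11, was also among the largest. Inhba also passed, but its 200 UMIs all lay in the deepest vehicle member. Of 25 tested type 17 genes 8 were higher and none lower, and 14 were higher without the mixed members, with Blk, Kcnk1, Ltb4r1, Ahr, Rora and S100a4 added. The list's median was 1.88 against 0.17 over all genes tested.

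Of 21 type 1 and cytotoxic genes 7 were lower in the positive members and none higher, with a median of −3.62, or −2.0 with genes at 0 UMIs on 1 side put at their bound. Ccl5 was at 2561 and 1235 CPM in the 13 negative members and at 143 and 8.04 CPM in the positive members (−4.45 ± 0.63, adjusted p = 0.0012). All 53 UMIs on the negative side of the library labelled tamoxifen lay in the mixed member with 87 NK list UMIs. The 49 UMIs of the positive vehicle members likewise lay in 1 mixed member. Without the mixed members the difference was −8.26 and rested on the vehicle library. Nkg7 (−4.71 ± 0.48) and Klf2 (−2.91 ± 0.33) were likewise lower in the positive members. Themis, which tunes αβ T cell receptor signals in the thymus, had 33 UMIs in 6 negative members and none in the 71 positive ones, and Ifng had 10 UMIs in 3 negative members and none. The costimulatory receptor Cd28 had 32 UMIs in 7 negative members and 1 UMI in the positive ones (−7.30 ± 0.77, adjusted p = 8.5e-05). Prkch, a protein kinase C gene, was at 780 and 1118 CPM against 17.5 and 4.02 (−6.20 ± 0.40, adjusted p = 9.4e-07). Klra8, an NK receptor gene, passed on 10 UMIs of the mixed member with 87 NK list UMIs, and not without it. Klrc2, Crtam, Dapl1, Slamf6, Pde2a and Sh2d1a, in order of the difference, completed the genes named by size. Trac and Trbc2 did not pass (−0.32 ± 0.52 and −0.14 ± 0.30). The negative side draws on 8 and 5 members. The spread is again what the library covariate leaves, and it is pooled over both sides and the CD8 T, CD4 T and NK sums of the fit.

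**Figure D4:**
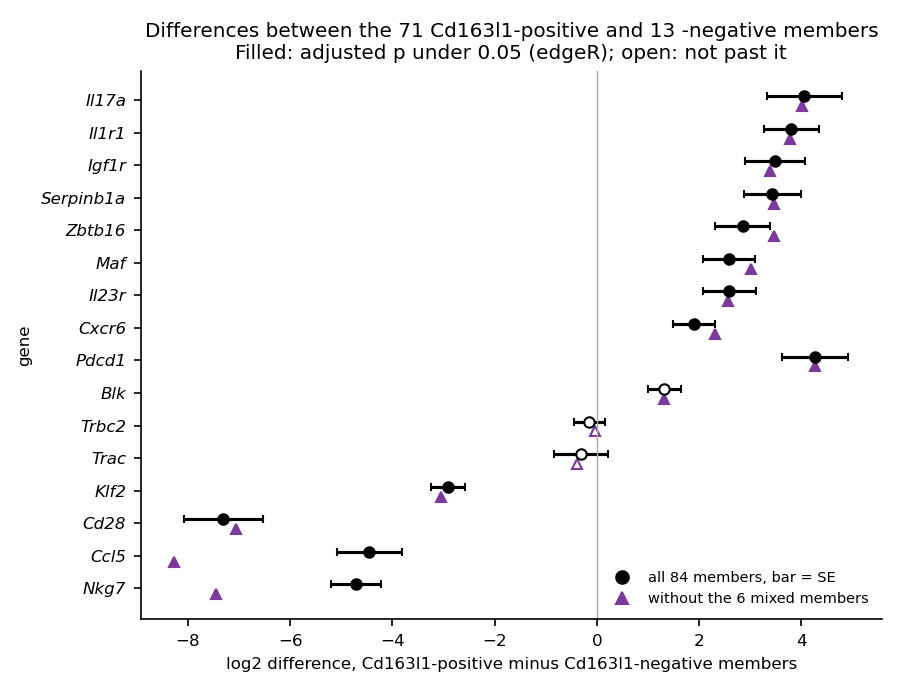
Log2 difference between the 71 Cd163l1-positive and 13 Cd163l1-negative members for 16 genes, with all members (circles, bar = SE) and without the 6 mixed members (triangles), filled where the adjusted p was under 0.05. Il17a, Il1r1 and Pdcd1 lie near 4 on the positive side, Trac and Trbc2 near 0, and Ccl5, Nkg7 and Cd28 below −4.

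Between the treatments there was 1 library each, so no test was made, and genes were named by size: at least 50 UMIs over both libraries and at least 2-fold apart with 5 CPM added. Of 2590 genes considered, 35 were higher in the library labelled tamoxifen (1.35%) and 135 lower (5.21%). Without the mixed members 30 of 2124 were higher (1.41%) and 49 lower (2.31%), of which 24 and 30 were among those called with all members. 

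Il17a had the largest upward difference. The vehicle members held 244 UMIs, 606 CPM (exact Poisson 95% interval 532 to 687), and the others 811 UMIs, 2781 CPM (2593 to 2979), a log2 difference of 2.19 (1.95 without the mixed members and 1.91 in Cd163l1-positive members without them). Per member, Il17a ran from 0 to 125 UMIs with a median of 0 in the vehicle library, and from 0 to 128 with a median of 2 in the other, so the ranges overlap. In the vehicle library 1 member held 51.2% of the Il17a UMIs and in the other 15.8%. After thinning each cell to 2000 UMIs, Il17a was seen in 10 of 48 vehicle members (20.8%, Clopper-Pearson 10.5 to 35) and in 19 of 36 of the others (52.8%, 35.5 to 69.6). Unthinned shares were 33.3% and 63.9%. With 1 library per treatment, the intervals of the levels and of the shares cover counting error only, not the spread between libraries or animals. Those of the levels also leave out the spread between members. In B cells, which should lack Il17a, the thinned shares were 1 of 362 (0.276%) and 0 of 162, which allows up to 1.85%. In CD4 T cells the same log2 difference was −0.65, with 41.5 and 24.7 CPM.

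The other type 17 genes were mostly within 2-fold. Of 22 considered, 1 was at least 2-fold higher and 2 lower, with a median of 0.16 against −0.04 over all genes. Without the mixed members 20 were considered, 1 was higher and 1 lower, and the median was 0.037. Il23r differed by 0.28, Il1r1 by 0.20, Maf by 0.12, Il7r by −0.10 and Rora by −0.12 on the log2 scale. Igf1r was lower by −1.03, with 276 and 97 UMIs. Blk was 0.76 and Pdcd1 0.80 higher, under 2-fold. Of the 18 genes of the interferon response list only 3 had enough UMIs to be considered. All 3 were at least 2-fold higher in the library labelled tamoxifen, among them Ly6a (137 and 415 CPM, log2 1.57) and Bst2 (62.1 and 147 CPM, log2 1.18). Summed over the list, levels were 477 and 1145 CPM in members. They also rose in CD8 T cells (857 and 1654), CD4 T cells (1155 and 1642) and NK cells (364 and 474). Ly6a was seen in 17 of 48 and 19 of 36 members. In CD8 T, CD4 T and NK cells the log2 difference of Ly6a was 1.11, 0.45 and −0.79. Of 3 cell cycle genes considered, 2 were higher, Top2a (log2 1.35) and Stmn1 (1.24), and 1 member held 21 of the 43 Top2a UMIs there.

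The remaining genes named as higher were Cxcl10, BC018473, Stx11, Cpm, Glcci1, Dkk3 and Samhd1. BC018473 was seen in 32 and 32 members, at 209 and 754 CPM (log2 1.83), and was also higher in CD8 T, CD4 T and NK cells of the library labelled tamoxifen (1.23, 1.42 and 1.46). For Cxcl10, a chemokine gene, 41 of the 49 UMIs there lay in 1 member, and for Samhd1 57 of 105. Dkk3 was at 42.2 and 120 CPM in 12 and 16 members, and Stx11, a granule release gene, at 57.1 and 202 CPM in 12 and 17.

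The largest downward differences lay in 1 cell. Spp1, Clu, Inhba, Tnc, Fbln2, Mmp13, Ccl2 and Fn1 were among the first in the list, and the deepest vehicle member held 686 of 687 Spp1 UMIs, 1442 of 1451 Clu UMIs and all 200 of Inhba. Without the mixed members their log2 differences ran from −0.74 to 0.74. On the remaining members Ccl5 had the largest downward difference (−5.16), but all its vehicle UMIs left lay in Cd163l1-negative members. In Cd163l1-positive ones without the mixed members only 2 UMIs were left, in 2 members of the library labelled tamoxifen. The value of 1.38 the other way there rests on these 2 UMIs and the 5 CPM added. Gramd3 (−1.81), Nt5dc1 (−1.63), Mmp16 (−1.55), Elovl5 (−1.45), Thada (−1.45) and Zfp654 (−1.43) followed. Nt5dc1 was seen in 28 of 48 and 11 of 36 members, at 127 and 44.6 CPM, and Mmp16, a membrane metalloprotease gene, in 24 and 14, at 298 and 130 CPM. Txk, a Tec-family kinase gene, was at 139 and 61.7 CPM (−1.40), and Pde7a (−1.36) and Psmd7 (−1.34) closed the named genes. With 1 library per treatment these differences cannot be told apart from a difference between libraries.

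**Figure D5:**
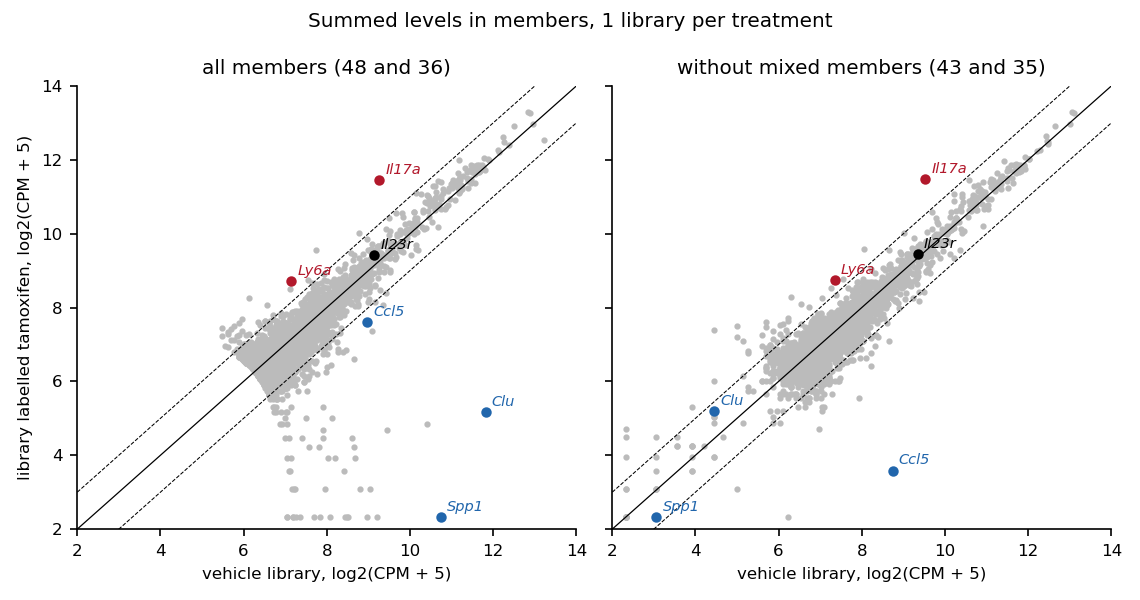
Levels of the 2590 considered genes in members as log2(CPM + 5), vehicle library against the library labelled tamoxifen, with all members (left) and without the mixed ones (right), with solid lines at equality and dashed lines at 2-fold. Spp1 and Clu fall far below the lower line on the left and near equality on the right, while Il17a stays above the upper line in both (log2 2.19 and 1.95).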

How the data were processed

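The deposited files hold UMI counts per gene and barcode in 4 libraries, written by the authors' Cell Ranger runs without normalization (version 7.0.1 per the file headers, 7.2.0 with mm10 per the submitters' processing notes), from 3′ version 3 chemistry per the labels' protocols. Strand and intron settings are not given in the sources used here. Of 32289 features, 32158 matched GENCODE M21. A further allele shared by all mice and some genes that the naming rule selects are not reported here.

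The filter on barcodes was 200 genes or more with mitochondrial UMIs up to 20%. Scrublet (scanpy 1.11.5) gave doublet scores but removed nothing, because no member scored above 0.25. The members and the 20 gene lists were chosen with earlier results of these data known. UMIs were summed per library and gate and tested with edgeR 4.0.16 (TMM, filterByExpr, quasi-likelihood, residual df 3, Benjamini-Hochberg, threshold 0.05), with DESeq2 1.42.0 as an alternative. The comparison sets lacked Trdc and Cd163l1 UMIs, apart from NK cells (no CD3 UMI, at least 2 of Ncr1 and Klrb1c). The tests were checked on simulated counts. CPM are scaled to the summed UMIs of the set, not per length, so levels are compared within a gene. Intervals and floors (3 counts) cover counting error only. The named genes are list members, the 10 extreme genes per direction of the least difference over the 3 sets and of the Cd163l1 split, and the 10 largest differences per direction between treatments, without gate, mitochondrial, ribosomal, immunoglobulin, receptor variable, sex-linked and unnamed genes and genes higher in barcodes without CD3 UMIs. Removal of the mixed members, of the deepest vehicle member and of members with a Trac UMI was chosen after seeing the data, as were the lower genes named without the mixed members. Libraries held from 92644997 to 144994771 UMIs.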

Additional observations from a re-analysis of the deposited data

How the results depend on the processing

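Of 104 alternative values of counts and shares, 81 stayed within the limits set for them. Against CD8 T cells the genes higher went to 700 with no filter on low counts, and the genes lower to 578 with no filter and 232 with DESeq2. Against conventional CD4 T cells the genes higher went to 285 with DESeq2 and the genes lower to 239 with DESeq2 and 670 with no filter. No alternative moved the counts against NK cells by over 1.5 times. In the Cd163l1 split the genes higher went to 211 with no filter, 122 without the deepest vehicle member and 116 without the 6 mixed members, and the genes lower to 137 with DESeq2 and 135 with no filter. DESeq2 called 74 genes higher there, so the share of higher calls went from 50% to 35.1%. Between treatments the genes higher went to 135 at 20 UMIs, 10 at 100 UMIs and 22 in Cd163l1-positive members without the mixed ones. The genes lower went to 472, 46 and 39 in the same settings, to 64 without members with a Trac UMI, 75 without the deepest vehicle member, 54 in Cd163l1-positive members without it and 49 without the mixed members. Leaving out members with a Trac UMI left 0.466% and 0.369% of kept barcodes as members (34 and 23).

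Values that changed sign did so on leaving cells out. For Krt18 against CD8 T cells they were −1.21 without members with a Trac UMI, −1.25 without the deepest vehicle member and −1.15 without the mixed members, and −0.90, −0.94 and −0.84 against NK cells. Vegfa against CD4 T cells went to −0.14, −0.18 and −0.0815 in the same order, Klra4 without the mixed members to −0.0677 against CD8 T cells and −0.10 against CD4 T cells, and Trac against NK cells to −7.36 without members with a Trac UMI, by construction. Between treatments, in the order without members with a Trac UMI, without the deepest vehicle member, Cd163l1-positive without it, without the mixed members and Cd163l1-positive without those, Clu went to 0.013, 0.18, 0.14, 0.74 and 0.71, Ccl2 to 0.10, 0.0813, 0.85, 0.0239 and 0.85, and Fn1 to 0.48, 0.55, 0.77, 0.44 and 0.65. Ccl5 went to 1.38 in Cd163l1-positive members without the mixed ones, on 2 UMIs. The deepest vehicle member held nearly all UMIs of Clu, Ccl2 and Fn1. In the library labelled tamoxifen these genes had 9, 1 and 7 UMIs, so their values without that member rest on few UMIs. The cause of the other changes was not tested. The number of members limits the precision: the negative side of the Cd163l1 split holds 13. Between the treatments no paired analysis was possible because each group holds 1 library and the labels give no replicate numbers.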
